A study of Mus musculus with 10 samples.

Results

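The genes that make cholesterol, bring it in and move it, together with the SREBP2 system that controls them, were described across 10 mouse livers. The list held 31 genes: 4 of the control system, 20 synthesis enzymes and 7 genes of uptake and transport. Members were found as probe sets of the array whose annotation gives exactly 1 gene symbol, equal to the member's symbol, and 28 of the 31 were found in this way, of 22180 genes measured alike. Scap and Npc1 each had a second probe set, and the one with the higher mean over the 10 arrays was used. Acat2 and Soat2 were on no named probe set, and Idi1 was only on a probe set shared with another symbol, so these 3 members have no value here. All 28 measured members lay above a background level of 6.54, the 95th percentile of 1108 olfactory receptor probe sets, which serve as a low-signal reference in liver.

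SREBP2, the product of Srebf2, is a transcription factor held in the endoplasmic reticulum membrane with its escort Scap. When membrane cholesterol is high, the Insig proteins retain the complex. When cholesterol is low, the complex moves to the Golgi, SREBP2 is cut free, and it turns on the enzymes of cholesterol synthesis and Insig1 itself. The liver is the main organ of whole-body cholesterol balance, and fasting is known to lower hepatic SREBP activity.

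Livers of double knockout mice, which lack macroH2A1 and macroH2A2, variants of the histone H2A with a large non-histone domain, were compared with livers of wild-type mice. Both groups were 2-month-old males of the strain 129/S6 (taconic), kept on low fat chow and fasted for about 16 h overnight before a mid-morning kill, with 5 arrays each. Total liver RNA was hybridised to Affymetrix arrays, and each value is a deposited log2 expression level, on which a difference of 1 is a doubling. The labels number the samples within a group but do not say in so many words that each was a separate animal, so the p-values measure the spread between these samples. The number of arrays limits the precision.

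The 10 arrays had medians between 6.43 and 6.46 and correlated with each other at 0.989 to 0.995. Macroh2a1 averaged 9.11 ± 0.07 in double knockout and 9.60 ± 0.07 in wild type (SD, n = 5 each), a difference of -0.49 (limma adjusted p = 0.00128). Macroh2a2 was below the background level in both, at 6.12 ± 0.19 in double knockout and 6.32 ± 0.28 in wild type (limma adjusted p = 0.514), so that gene does not check the labels; where either probe set lies relative to the deleted part is not known here. Of 25335 probe sets tested, 84 were higher and 140 lower in double knockout at an adjusted p under 0.05. The mean levels of cell type marker lists also differed between arrays. The mean of the 10 hepatocyte markers lay between 13.36 and 13.38 in double knockout and between 13.35 and 13.42 in wild type. The mean of 12 pancreatic acinar markers was 8.71 and 8.91 in double knockout replicates 1 and 2 and at most 6.88 in the other double knockout arrays, against 9.86 and 10.99 in wild-type replicates 4 and 5 and at most 6.38 in the other wild-type arrays. Of 14 macrophage markers, all with a mean over the 10 arrays above background, 14 had a higher mean in double knockout. Among all probe sets, 51.5% had a lower mean in double knockout. Marco (difference 0.61, limma adjusted p = 0.0475) and Cd163 (difference 0.44, limma adjusted p = 0.0284) were called higher, as were 0.332% of all probe sets. The groups of Marco overlap, and in wild-type replicate 2 it read 6.31, under the background level. The part of these cell types in the results below was not tested, beyond correlations of list means with the enzyme mean given further on.

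Promoter sequences of 5 members are printed because these members varied together across the livers, as described further on; they are 4 enzymes and Insig1, picked after their values were seen. Each run is the 180 bases before the annotated start on the gene's own strand, from RefSeq on the build GRCm38.p6, at chr5:4104698-4104877 (minus strand) for Cyp51, chr8:64733579-64733758 (minus strand) for Msmo1, chrX:72918341-72918520 (plus strand) for Nsdhl, chr13:119690171-119690350 (plus strand) for Hmgcs1 and chr5:28071232-28071411 (plus strand) for Insig1. Capitals mark every match, on either strand, to the CCAAT box (CCAAT or its complement ATTGG), to a sterol regulatory element (TCACNCCAC, where N is any base) and to the E-box (CACGTG); none of the marked matches overlaps another.
Cyp51: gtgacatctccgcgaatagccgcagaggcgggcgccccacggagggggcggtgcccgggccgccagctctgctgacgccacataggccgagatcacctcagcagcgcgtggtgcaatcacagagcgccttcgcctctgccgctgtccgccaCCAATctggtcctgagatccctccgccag
Msmo1: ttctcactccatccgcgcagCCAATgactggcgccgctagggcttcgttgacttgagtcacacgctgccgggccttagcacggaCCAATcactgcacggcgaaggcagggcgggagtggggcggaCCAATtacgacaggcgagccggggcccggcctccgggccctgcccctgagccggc
Nsdhl: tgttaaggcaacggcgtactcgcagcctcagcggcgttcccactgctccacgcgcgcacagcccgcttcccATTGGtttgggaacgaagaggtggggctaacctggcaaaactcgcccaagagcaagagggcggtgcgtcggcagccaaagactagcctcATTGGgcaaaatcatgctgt
Hmgcs1: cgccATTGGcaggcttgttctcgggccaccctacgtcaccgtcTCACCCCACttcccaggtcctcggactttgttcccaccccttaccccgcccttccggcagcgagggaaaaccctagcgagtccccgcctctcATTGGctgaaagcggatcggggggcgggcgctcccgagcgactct
Insig1: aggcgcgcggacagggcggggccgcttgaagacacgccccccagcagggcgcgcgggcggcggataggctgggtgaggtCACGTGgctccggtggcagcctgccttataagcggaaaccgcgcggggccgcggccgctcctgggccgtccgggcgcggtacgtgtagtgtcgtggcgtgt
In these runs Cyp51 holds 1 CCAAT box, 29 bases before its start, Msmo1 holds 3 and Nsdhl holds 2. Hmgcs1 holds 2 CCAAT boxes and, 137 bases before its start, the sterol element. Insig1 holds an E-box 101 bases before its start, and its CCAAT box lies farther upstream. In the whole 250 bases before the start, 22 of the 28 measured members had a sequence in the table, 15 of them enzymes. A CCAAT box lay in 20 of the 22 members and in 15 of the 15 enzymes, against 37.5% of the 27025 genes in the table. The GC box (GGGCGG) lay in 20 of the 22 members and 13 of the 15 enzymes, against 35.4% of genes. The sterol element, spelled strictly as above, lay in Hmgcs1 alone among the 22, against 1.22% of genes, and the E-box in 6 of the 22, against 6.86%. These matches describe the letters of the windows and say nothing of what binds there.

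None of the 28 measured members passed the test between double knockout and wild-type livers (limma, adjusted p under 0.05 over all 25335 probe sets), where 0.884% of all probe sets passed, 0.332% with a higher and 0.553% with a lower mean in double knockout. At an unadjusted p under 0.05 there were 5 of 28 members, all with a lower mean in double knockout, namely Scarb1, Tm7sf2, Sc5d, Insig1 and Dhcr7; 15.1% of all probe sets had such a p, 7.6% with a lower mean. The mean was lower in double knockout for 23 of the 28 members, against 51.5% of all probe sets and 54.3% of those above background. The members varied together over the same arrays, as described further on, so the 28 are not independent observations. Some of the 23 differences were close to 0, such as those of Fdps (-0.00037) and Srebf2 (-0.00094). The median difference was -0.08 over the members and -0.003 over all probe sets. In tissue RNA, fewer cells of a type and less RNA per cell cannot be told apart.

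**Figure D1:**
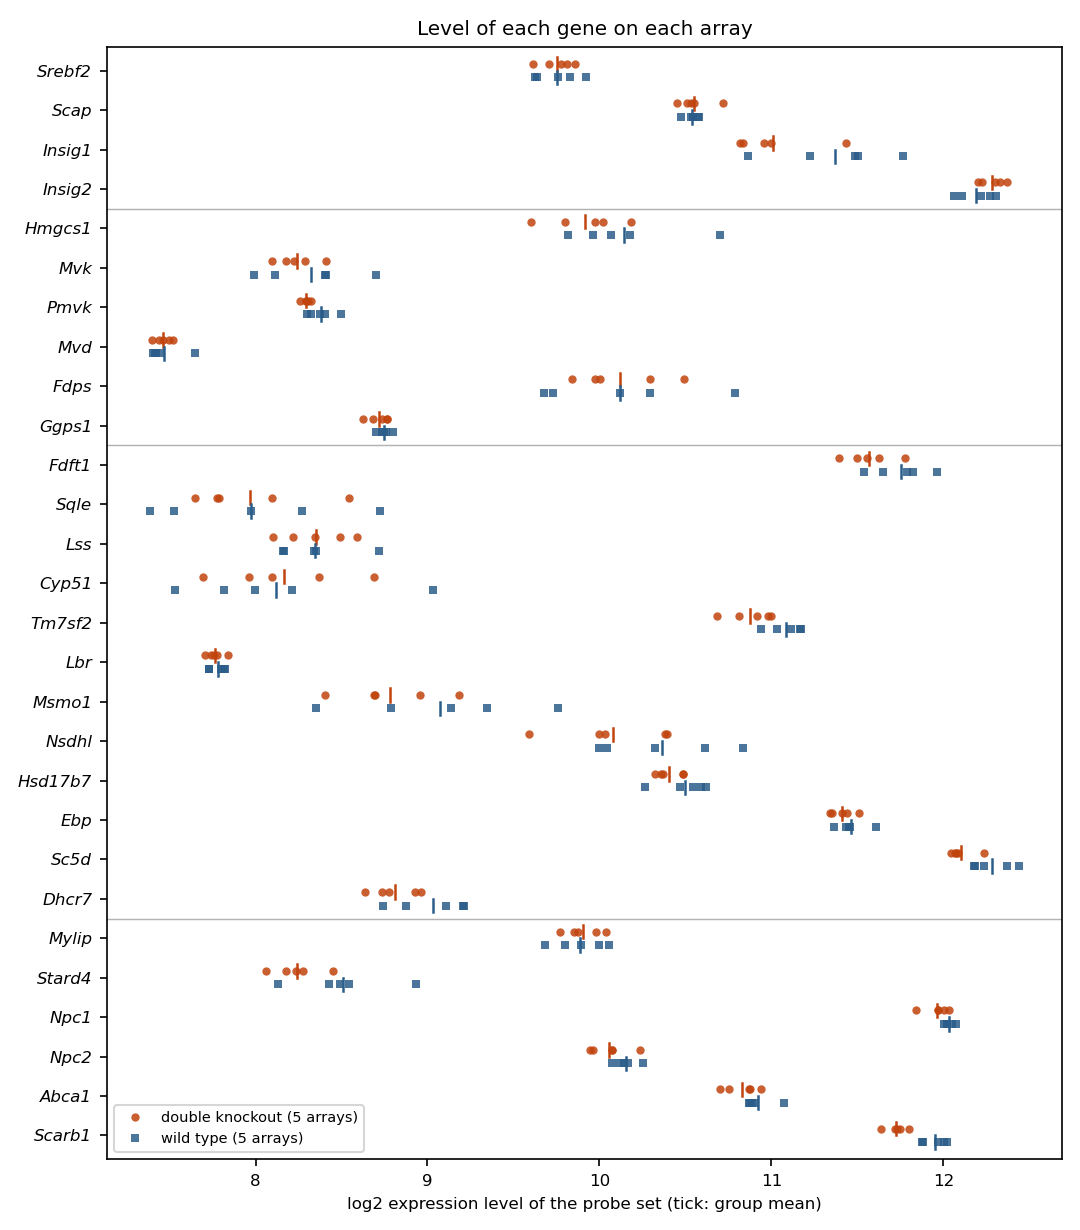
Level of each measured member on each array, with log2 expression level on the horizontal axis, 1 row per gene ordered by role, circles for the 5 double knockout arrays above squares for the 5 wild-type arrays, and ticks for the group means. Scarb1 is the member whose groups do not overlap, and Hmgcs1, Fdps, Sqle, Cyp51, Msmo1 and Nsdhl spread over more than 1 log2 unit.

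Among the control genes, Srebf2 had nearly equal means in the groups. Srebf2 read 9.81, 9.86, 9.71, 9.78 and 9.62 in double knockout replicates 1 to 5, against 9.92, 9.76, 9.83, 9.63 and 9.64 in wild-type replicates 1 to 5. The groups overlap over nearly their whole range. Its difference was -0.00094, with a 95% interval of -0.15 to 0.14 (limma adjusted p = 0.997). Scap, the sterol-sensing escort, differed by 0.01 (-0.10 to 0.12), and its second probe set by -0.13 (limma adjusted p = 0.252).

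Insig1, which retains the Scap complex and is itself an SREBP2 target, had the most negative difference of all members. It read 10.83, 11.44, 11.00, 10.96 and 10.82 in double knockout, against 11.77, 11.50, 11.49, 11.23 and 10.86 in wild type. Of the double knockout arrays, 4 lay at or under 11.00 and replicate 2 stood among the wild-type values, while wild-type replicate 5 stood among the double knockout values. The means were 11.01 ± 0.25 in double knockout and 11.37 ± 0.34 in wild type (SD, n = 5 each), a difference of -0.36 (SE 0.16, 95% interval -0.71 to -0.02) that did not pass (limma adjusted p = 0.307). Insig2, the second retention protein, whose liver transcript is known from mice to be induced by fasting, had the most positive difference, 0.09 (-0.03 to 0.22, limma adjusted p = 0.494). Its levels ran between 12.20 and 12.37 in double knockout and between 12.06 and 12.30 in wild type, so the groups overlap.

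The 6 measured enzymes of the mevalonate and isoprenoid steps had lower or equal means in double knockout, with differences between -0.23 and -0.00037, and none was called. Hmgcs1, which condenses acetoacetyl-CoA and acetyl-CoA, read 10.02, 10.18, 9.80, 9.97 and 9.60 in double knockout, against 10.70, 9.96, 10.18, 10.07 and 9.82 in wild type. Wild-type replicate 1 stood well above every other array, and the values of the other arrays overlap between the groups. Its difference was -0.23 (-0.56 to 0.10, limma adjusted p = 0.53). The difference of Hmgcs1 was -0.15 without double knockout replicate 5 and -0.09 without wild-type replicate 1.

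Fdps, which makes farnesyl diphosphate, read 10.30, 10.49, 9.98, 10.00 and 9.84 in double knockout, against 10.79, 10.12, 10.29, 9.68 and 9.73 in wild type. The wild-type arrays hold both the highest and the lowest value of the 10. The means were 10.12 ± 0.26 in double knockout and 10.12 ± 0.45 in wild type (SD, n = 5 each). Mvk, the mevalonate kinase, differed by -0.09 (-0.34 to 0.17), and Pmvk, which adds the second phosphate, by -0.08 (-0.18 to 0.01). Mvd, the decarboxylase that follows, read 7.65 in wild-type replicate 1 and between 7.40 and 7.52 in the other 9 arrays. Ggps1, which leads to geranylgeranyl diphosphate and away from sterols, differed by -0.03 (-0.12 to 0.06) and was among the members with the least spread.

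Of the 12 squalene and sterol enzymes, 10 had a lower mean in double knockout, 2 a higher one, and none was called. Tm7sf2, a sterol reductase, read 11.00, 10.81, 10.92, 10.98 and 10.69 in double knockout, against 11.17, 11.17, 11.12, 11.03 and 10.94 in wild type. The groups overlap only at wild-type replicate 5, whose value lay below those of double knockout replicates 1 and 4. The difference of Tm7sf2 was -0.21 (SE 0.07, 95% interval -0.36 to -0.06, limma adjusted p = 0.178).

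Sc5d, the desaturase that introduces the C5 double bond, read 12.07, 12.24, 12.07, 12.08 and 12.05 in double knockout, against 12.44, 12.24, 12.18, 12.37 and 12.18 in wild type. Double knockout replicate 2 alone reached the wild-type values. Its difference was -0.18 (SE 0.06, 95% interval -0.31 to -0.05, limma adjusted p = 0.185). Dhcr7, which reduces 7-dehydrocholesterol to cholesterol, read 8.96, 8.93, 8.73, 8.78 and 8.64 in double knockout, against 9.21, 9.10, 9.21, 8.88 and 8.74 in wild type. Wild-type replicates 1, 2 and 3 stood above every double knockout array, and replicates 4 and 5 did not. The difference of Dhcr7 was -0.22 (SE 0.10, 95% interval -0.43 to -0.01, limma adjusted p = 0.31).

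Cyp51, the lanosterol demethylase, had the widest spread of the members. It read 8.37, 8.69, 8.10, 7.96 and 7.70 in double knockout, against 9.03, 8.00, 8.21, 7.82 and 7.53 in wild type. The highest array was 2.83-fold above the lowest, and both were wild type. Its difference was 0.05 (-0.51 to 0.60, limma adjusted p = 0.96), an interval more than 1 log2 unit wide.

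Sqle, the squalene epoxidase, read 8.09, 8.54, 7.78, 7.79 and 7.65 in double knockout, against 8.72, 7.97, 8.27, 7.52 and 7.39 in wild type. As for Cyp51, wild-type replicate 1 was the highest and wild-type replicate 5 the lowest array. The means were 7.97 ± 0.36 in double knockout and 7.98 ± 0.55 in wild type (SD, n = 5 each), and the 95% interval of the difference ran from -0.53 to 0.52. Without wild-type replicate 1 the differences were 0.18 for Sqle, 0.27 for Cyp51 and 0.17 for Fdps. Msmo1, the sterol C4 methyl oxidase, read 8.96, 9.18, 8.69, 8.69 and 8.40 in double knockout, against 9.76, 9.13, 9.35, 8.79 and 8.35 in wild type. Its wild-type arrays reach beyond the double knockout arrays at both ends, and its difference was -0.29 (-0.78 to 0.20, limma adjusted p = 0.603). Leaving out wild-type replicate 1 gave Msmo1 a difference of -0.12, and leaving out wild-type replicate 5 gave -0.47.

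Nsdhl, the dehydrogenase that works beside Msmo1, read 10.38, 10.39, 10.00, 10.04 and 9.59 in double knockout, against 10.83, 10.33, 10.61, 10.00 and 10.04 in wild type. Double knockout replicate 5 was the lowest array and wild-type replicate 1 the highest, with a difference between the groups of -0.28 (-0.68 to 0.11). It was -0.16 without double knockout replicate 5, and also -0.16 when wild-type replicate 1 was left out. Fdft1, the squalene synthase at the branch to sterols, had 11.57 ± 0.14 in double knockout and 11.75 ± 0.17 in wild type (SD, n = 5 each), a difference of -0.18 (-0.37 to 0.01, limma adjusted p = 0.351). Lss, which closes squalene epoxide into lanosterol, had the same mean of 8.35 in both groups, with an interval of -0.25 to 0.25. The remaining 3 were Hsd17b7, a ketosterol reductase, at -0.09 (-0.24 to 0.05), Ebp, a sterol isomerase, at -0.05 (-0.17 to 0.06), and Lbr, an inner nuclear membrane protein with sterol reductase activity, at -0.01 (-0.10 to 0.08).

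**Figure D2:**
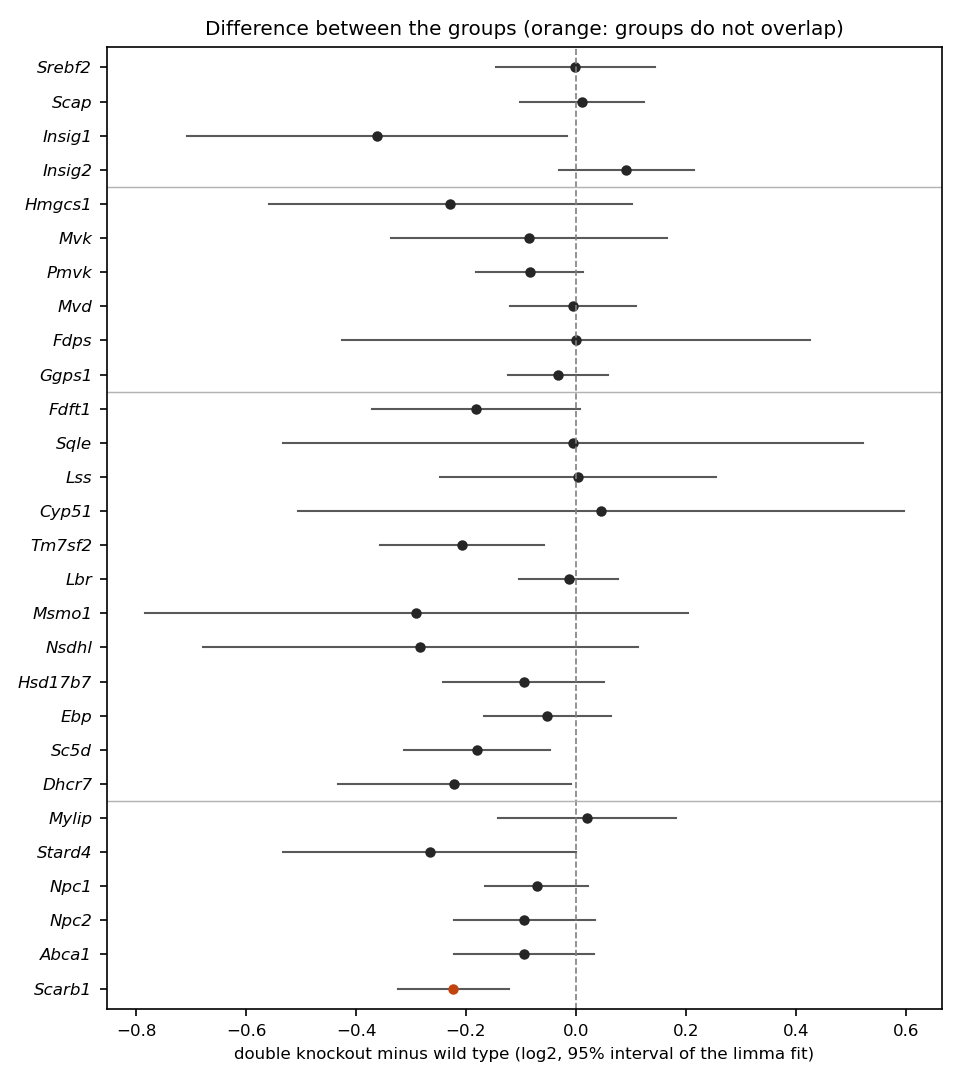
Difference between double knockout and wild type for each measured member, on the log2 scale, with the 95% interval of the limma fit over 5 arrays a group. The intervals of 5 members lie below 0 and none lies above, and the groups of Scarb1, drawn in orange, do not overlap.

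Of the 6 measured genes of uptake and transport, 5 had a lower mean in double knockout and none was called. Scarb1, the receptor through which the liver takes cholesterol from high density lipoprotein, came closest. It read 11.80, 11.75, 11.73, 11.72 and 11.64 in double knockout, against 12.02, 11.88, 12.01, 11.97 and 11.88 in wild type. Every double knockout array lay below every wild-type array, the 1 member of 28 for which the groups do not overlap. Groups did not overlap for 3.9% of all probe sets, 2.15% with double knockout lower and 1.75% with it higher. The means were 11.73 ± 0.06 in double knockout and 11.95 ± 0.07 in wild type (SD, n = 5 each), a difference of -0.22 (SE 0.05, 95% interval -0.32 to -0.12), or 0.857-fold. Its adjusted p in limma was 0.0503, just above the threshold, and ranged over all alternatives from 0.0242 to 0.145. It was called with an intensity trend in the variance (limma adjusted p = 0.0242), without double knockout replicate 1 (limma adjusted p = 0.04999) and without wild-type replicate 5 (limma adjusted p = 0.0486), and not when every row of the table was tested (limma adjusted p = 0.0994).

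Stard4, a soluble carrier of cholesterol and an SREBP2 target, read 8.24, 8.45, 8.06, 8.28 and 8.17 in double knockout, against 8.93, 8.54, 8.49, 8.43 and 8.13 in wild type. Wild-type replicates 1 to 3 stood above all double knockout arrays, and wild-type replicate 5 was lower than all but 1 of them. The difference was -0.27 (SE 0.12, 95% interval -0.53 to 0.00, limma adjusted p = 0.331), and -0.16 without wild-type replicate 1. The lysosomal cholesterol exporters Npc1 and Npc2 differed by -0.07 (-0.17 to 0.02) and -0.09 (-0.22 to 0.03). Abca1, which exports cholesterol to apolipoprotein A-I, differed by -0.09 (-0.22 to 0.03). Mylip, a ubiquitin ligase that lowers lipoprotein receptors, was the 1 gene of these 6 with a higher mean in double knockout, 9.90 ± 0.11, against 9.88 ± 0.15 in wild type (SD, n = 5 each).

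The calls depended on which arrays entered. In one alternative the 4 arrays highest in pancreas markers were left out, a choice made after the data were seen. It leaves 3 double knockout and 3 wild-type arrays. There Insig1 (difference -0.66) and Dhcr7 (difference -0.46) passed with a lower mean in double knockout, each with a limma adjusted p of 0.0431. Those 4 arrays were also the 2 double knockout arrays of highest and the 2 wild-type arrays of lowest mean of the synthesis enzymes, given below. Leaving them out by itself lowers the double knockout mean and raises the wild-type mean of genes that vary with the enzymes. The differences, counts and p-values of this alternative are therefore not read as a result about the groups. Without those 4 arrays Cyp51 differed by -0.50, Msmo1 by -0.82, Nsdhl by -0.72 and Sqle by -0.58, none of which was called. There 26 of the 28 members had a lower mean in double knockout, with a median difference over the members of -0.21. Over the 10 arrays with group means removed, the mean of the pancreatic markers had r = -0.36 with the mean of the synthesis enzymes. For macrophage markers r was -0.02 and for hepatocyte markers -0.23. The permutation p-values, adjusted over 10 lists, were 0.621, 0.953 and 0.743. These relations do not measure the part of pancreatic RNA, or of what came with it, in the differences above, which was not tested.

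The spread between arrays of a group differed widely over the members. It was taken as the SD after subtracting the group means, pooled over both groups, and set against 14078 tested probe sets above background, whose median was 0.0932. Of the 28 members, 11 lay above the 90th percentile and 8 above the 95th, while 10 lay below the median. The highest were Cyp51 (SD 0.485), Sqle (0.463), Msmo1 (0.433), Fdps (0.372), Nsdhl (0.346), Insig1 (0.300) and Hmgcs1 (0.286). Stard4, with 0.228, completes the 8. The lowest were Lbr (0.0472), Ggps1 (0.0494), Npc1 (0.0544), Pmvk (0.0579) and Scarb1 (0.0637). Srebf2, the factor's own transcript, had an SD of 0.112, well below those of the widest enzymes.

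**Figure D3:**
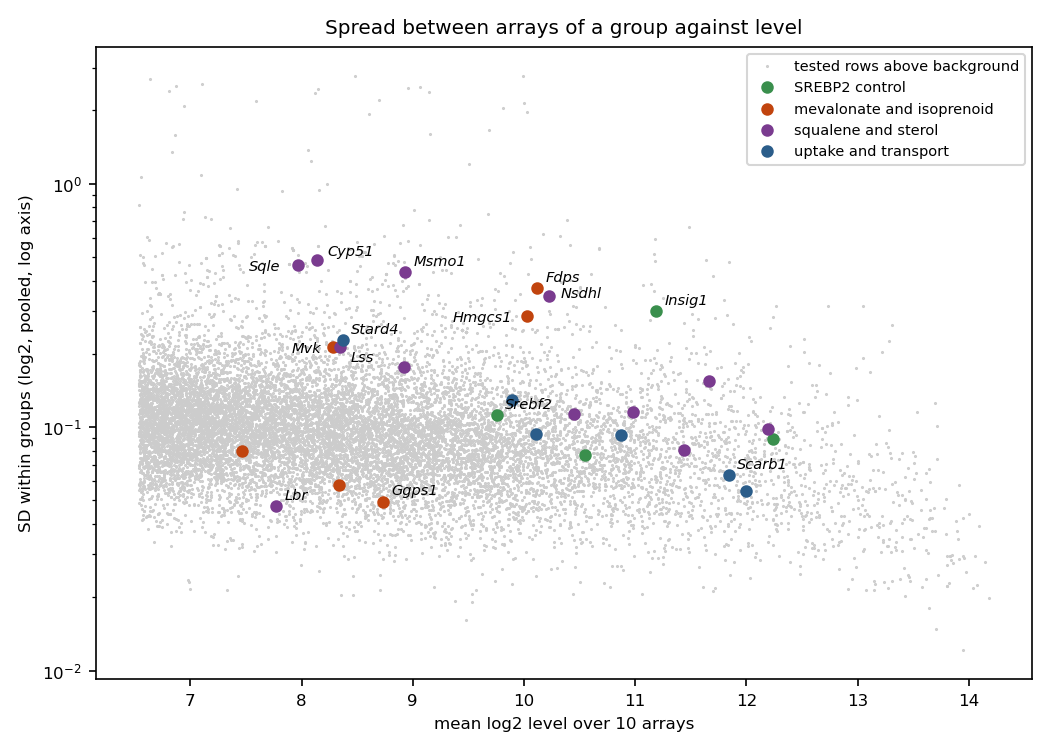
Pooled SD within groups (log2, log axis) against the mean log2 level over 10 arrays, with grey points for tested probe sets above background and coloured points for the 28 measured members by role. Cyp51, Sqle, Msmo1, Fdps, Nsdhl, Hmgcs1 and Insig1 lie in the upper part of the cloud at their level, and Lbr and Ggps1 in the lower part.

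The enzymes with wide spread were high and low on the same arrays. The mean of the 18 measured synthesis enzymes was 9.47, 9.58, 9.33, 9.36 and 9.22 in double knockout replicates 1 to 5, against 9.82, 9.49, 9.57, 9.37 and 9.25 in wild-type replicates 1 to 5. Among the double knockout arrays, replicate 2 was the highest for 12 of the 18 enzymes and replicate 5 the lowest for 12. Among the wild-type arrays, replicate 1 was the highest for 14 enzymes and replicate 5 the lowest for 9. Over all 10 arrays, wild-type replicate 1 was the highest for 14 enzymes. Relative to its group mean, Cyp51 stood at 0.53 in double knockout replicate 2 and -0.47 in double knockout replicate 5, and at 0.92 in wild-type replicate 1 and -0.59 in wild-type replicate 5. Srebf2 on the same arrays stood at 0.11 and -0.14 in double knockout and at 0.17 and -0.12 in wild type, so its deviations had the same signs at a smaller size.

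**Figure D4:**
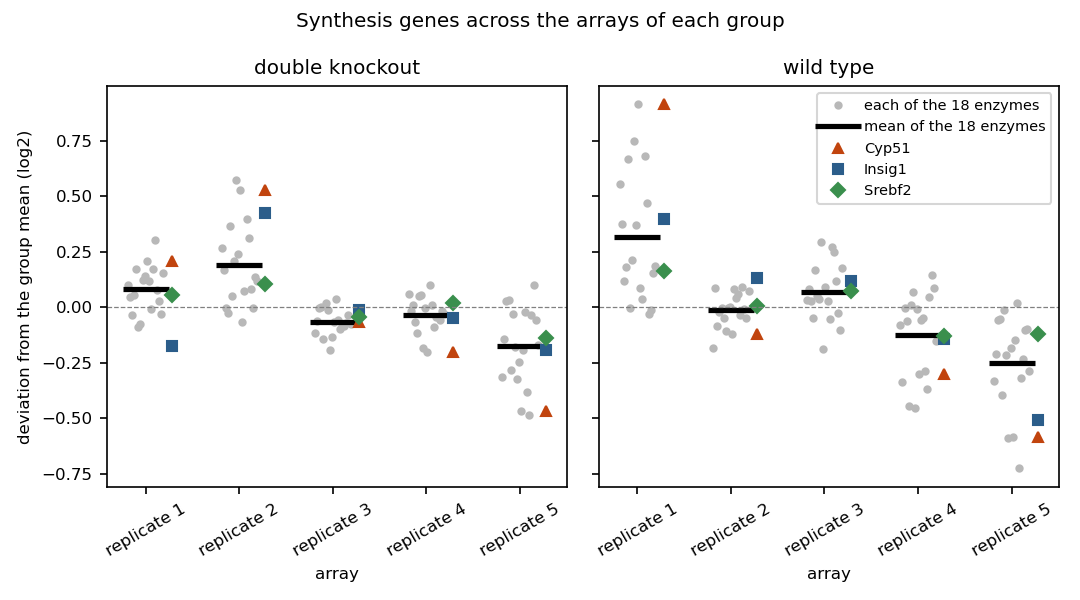
Deviation of the synthesis genes from their group mean (log2) on each array, with grey points for the 18 enzymes, black bars for their mean, and Cyp51, Insig1 and Srebf2 marked. The bars are highest in double knockout replicate 2 and wild-type replicate 1 and lowest in replicate 5 of both groups, and Srebf2 has the sign of the bar on 8 of the 10 arrays.

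Correlations between members were taken over the 10 arrays with the group means removed; since all pairs share the arrays, they are a description. Over the 153 pairs of synthesis enzymes the median r was 0.53, with 136 pairs above 0 and 33, or 21.6%, above 0.8. Over all pairs of tested probe sets above background the median was 0.008, with 0.631% above 0.8. The median was 0.59 within the mevalonate and isoprenoid enzymes, 0.52 within the squalene and sterol enzymes and 0.52 over pairs with 1 gene from each. Within uptake and transport the median was 0.21 over 15 pairs.

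The closest pair was Fdps and Sqle (r = 0.98), followed by Nsdhl with Srebf2 (0.98), Fdps with Mvk (0.97) and Msmo1 with Sqle (0.97). Set against the mean of the other enzymes, Cyp51 and Msmo1 (both 0.98), Sqle (0.97), Fdps (0.96), Hmgcs1 (0.94), Nsdhl (0.92), Mvk (0.90) and Dhcr7 (0.89) followed most closely. Ggps1 (0.12) and Ebp (-0.09) did not follow, and Lbr (0.44), Hsd17b7 (0.50) and Pmvk (0.54) did so loosely. The pooled SDs of these 5 were 0.0472 to 0.113. The most negative pairs were Sc5d with Mylip (-0.81) and with Insig2 (-0.77).

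**Figure D5:**
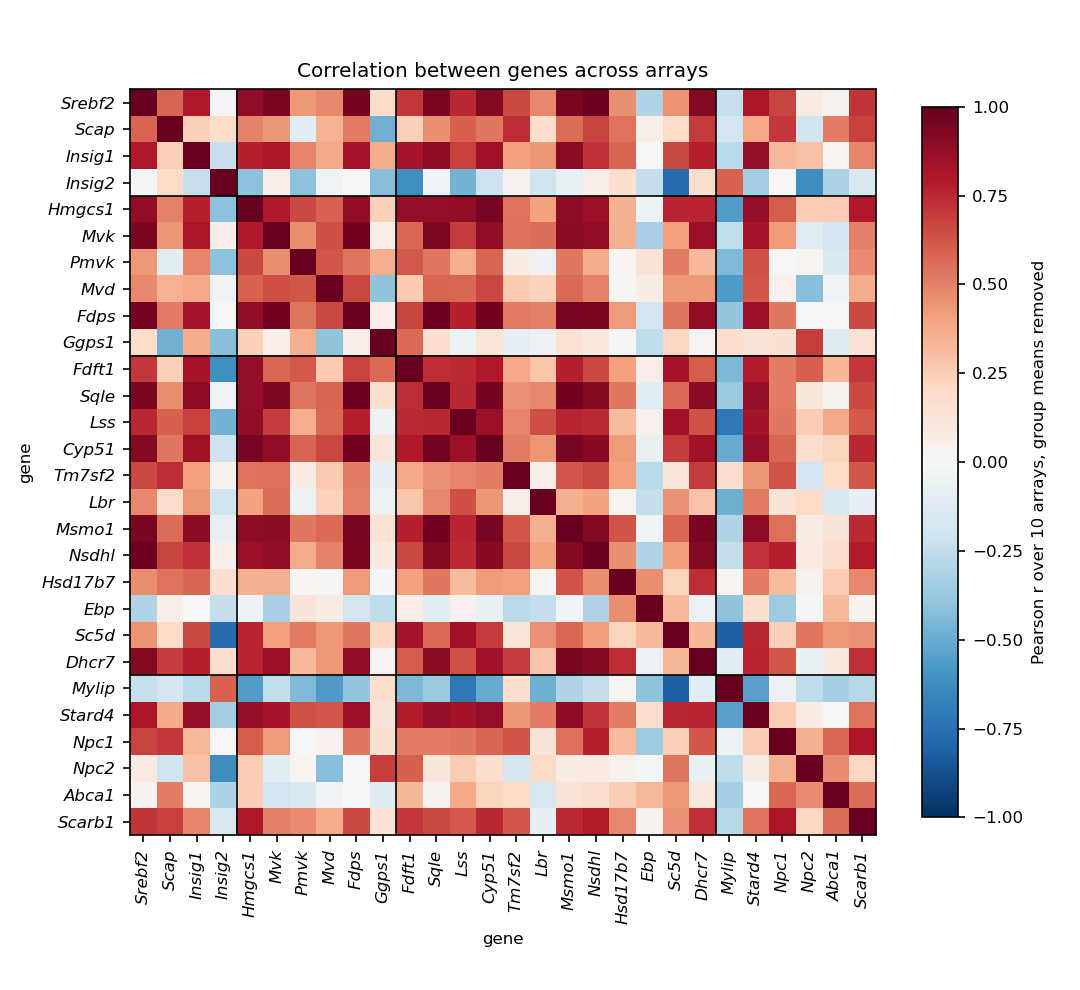
Pearson r between each pair of measured members over 10 arrays with group means removed, genes ordered by role with lines between the roles, from blue (-1) over white (0) to red (1). The enzymes from Hmgcs1 to Dhcr7 form a mostly red block with pale bands at Ggps1 and Ebp, Srebf2 and Insig1 are red against most of it, and Insig2 and Mylip are mostly pale or blue.

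Each of the 10 measured members outside the enzymes was set against the mean of the 18 enzymes over the 10 arrays with group means removed. Permutation p-values (two-sided) came from 100000 resamples and were adjusted over these 10 relations. The arrays were shuffled across both groups without allowing for the group means removed, so these p-values can be too small. Srebf2 followed the enzyme mean most closely, with r = 0.95 (permutation p = 3e-05, adjusted p = 0.0003) and rho = 0.94 (permutation p = 0.00029). Without wild-type replicates 1 and 5, the 2 arrays farthest from the median, r of Srebf2 was 0.95. Stard4 had r = 0.91 (permutation p = 0.00033, adjusted p = 0.00165) and rho = 0.85, with r = 0.74 without those 2 arrays. Insig1 had r = 0.87 (permutation p = 0.00116, adjusted p = 0.00387) and rho = 0.78, with r = 0.74 without them.

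Scarb1 had r = 0.75 (permutation p = 0.0119, adjusted p = 0.0297) and rho = 0.81, with r = 0.61 without the same 2 arrays; with the group means left in, r was 0.60 and did not pass. It also missed the threshold without double knockout replicate 4 or 5 or wild-type replicate 1 or 5, where r lay between 0.67 and 0.75. Npc1 had r = 0.58 and Scap r = 0.57, each with an adjusted permutation p of 0.148, while their rank correlations were higher, at rho = 0.76 and 0.84 (adjusted permutation p = 0.0257 and 0.012). Scap passed without double knockout replicate 1, with r = 0.82 (adjusted permutation p = 0.0229). Mylip had r = -0.43, Insig2 -0.16, Abca1 0.16 and Npc2 0.13, with adjusted permutation p-values between 0.309 and 0.718. Within the 6 arrays left after removing the 4 highest in pancreas markers, r was 0.91 for Srebf2, 0.94 for Insig1 and -0.88 for Insig2 (adjusted permutation p = 0.0492 each). For Stard4 it was 0.82 and for Scarb1 0.78, neither of which passed. These 6 arrays were chosen after the data were seen. Their values were shuffled across both groups although group means had been removed, so these p-values can be too small and no relation is read from them.

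Outside the list, 12529 genes above background were ranked by the r of their level with the mean of the 18 enzymes over the 10 arrays. The 8 most alike were Erg28 (r = 0.97), Cp (0.96), Slc27a2 (0.95), Crip2 (0.93), Lgals3bp (0.93), Ccny (0.93), Tprkb (0.93) and Ccni (0.92). They were picked as the top of 12529 genes over only 10 arrays. Selection alone can give high r there, and none of these r was tested. Erg28 is known as a scaffold of sterol C4 demethylation, the step of Msmo1 and Nsdhl. Erg28 read 12.18, 12.24, 12.10, 12.19 and 12.04 in double knockout, against 12.43, 12.26, 12.30, 12.19 and 12.15 in wild type, with wild-type replicate 1 highest and double knockout replicate 5 lowest. Its r was 0.93 without wild-type replicates 1 and 5. Cp encodes the copper carrier ceruloplasmin and Slc27a2 a fatty acid transporter of the liver, with pooled SDs of 0.0519 and 0.0425, against 0.485 for Cyp51. None of these 8 was called between the groups, with limma adjusted p-values between 0.289 and 0.94.

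Other genes of the pathway were counted in the same fit. The first list is named for SREBP release and sterol sensing but is wider than that, since it also holds Srebf1 and ubiquitin ligases. Of its 10 measured genes, 1 was called, higher in double knockout, where 0.884% of all probe sets were called and 0.332% were called higher. That was Syvn1, a ubiquitin ligase of the endoplasmic reticulum, which read 10.27, 10.13, 9.99, 10.32 and 10.29 in double knockout, against 9.80, 9.89, 9.88, 9.78 and 9.79 in wild type. The groups of Syvn1 do not overlap, and it rose by 0.37 (SE 0.06, limma adjusted p = 0.0232). It was no longer called without double knockout replicate 4 or 5 or without wild-type replicate 2 or 4, nor with every row of the table tested, with the replicate number as a block or without the 4 arrays highest in pancreas markers.

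No gene was called among 15 of the isoprenoid branches, 18 of sterol transport and export or 18 fatty acid genes driven by the related factor SREBP1. The median differences were -0.05 for the release and sensing list, -0.03 for the isoprenoid branches, -0.02 for transport and export and -0.07 for the fatty acid genes, against -0.003 over all probe sets. The lowest p-values in the isoprenoid branches were those of Rce1, a protease that trims prenylated proteins (difference 0.11, limma adjusted p = 0.259), and Rabggta, a subunit of a prenyl transferase (difference -0.09, limma adjusted p = 0.404). In transport and export they were those of Nceh1, a cholesterol ester hydrolase (difference 0.21, limma adjusted p = 0.0594), and Osbp, which carries sterol to the Golgi (difference 0.15, limma adjusted p = 0.106). The groups of Rce1, Nceh1 and Osbp do not overlap, each higher in double knockout, as for 1.75% of all probe sets. In the release and sensing list the groups of 1 gene did not overlap with double knockout lower, as for 2.15% of all probe sets.

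Among the fatty acid genes, Acly, which makes cytosolic acetyl-CoA for both sterols and fatty acids, read 9.40, 9.35, 9.35, 9.29 and 9.24 in double knockout, against 9.63, 9.54, 9.54, 9.70 and 9.44 in wild type. Its groups do not overlap, and its difference was -0.24 (limma adjusted p = 0.0594). Acacb, the mitochondrial acetyl-CoA carboxylase, differed by 0.38 (limma adjusted p = 0.133). Pairs within the fatty acid list had a median r of 0.13, with 0.654% above 0.8. The share was 0.631% for pairs of all probe sets above background and 21.6% for pairs of synthesis enzymes. Of the 18 fatty acid genes in these pairs, 17 lay above background, and Pnpla5 (mean 6.18) did not.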

How the data were processed

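The values used were log2 expression levels per probe set, deposited by the authors for 10 arrays. Per the submitters' processing notes, the program was Affymetrix Expression Console. Its version, the summarisation and the normalization are not given in any source used here. Scanner files were not analysed here. Of 41345 rows, 23521 had 1 gene symbol, 1814 several and 16010 none. The 25335 rows with a symbol were tested, without further normalization or filter.

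Double knockout was compared with wild type with limma 3.58.1 in R 4.3.3 (two-sided lmFit with eBayes, Benjamini-Hochberg over all rows tested, threshold 0.05), with group as the only term and 8 residual degrees of freedom. Scripts were tested on simulated data, the permutation test only on values without group means removed. Correlations used Python 3.11.15 with scipy 1.17.1 after subtracting group means. Permutation tests shuffled the 10 arrays 100000 times across both groups, without allowing for the group means removed. Promoter sequences came from RefSeq (GRCm38.p6).

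The members, gene lists and tests were chosen with earlier results of these data known. All members were named, per pathway list the called genes (up to 4) or the 2 of lowest p, and the 8 genes most like the enzyme mean. Cell type markers were lists of hepatocyte, pancreatic acinar, macrophage, endothelial, stellate and cholangiocyte genes. Of the last 3 lists, 0 of 10, 0 of 10 and 0 of 5 measured genes were called.

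Deviations of same-numbered arrays correlated at -0.48 to 0.13, so no pairing by replicate number was seen. So few values of deviations with group means removed cannot exclude one. Alternatives were other variance priors, array weights, normalizations, filters, tested rows, a threshold of 0.1, a replicate block and leaving out arrays.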

Additional observations from a re-analysis of the deposited data

Results flagged for a closer look

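In each group of 5 arrays, the highest and the lowest value of each measured member, of the enzyme mean and of the knocked-out genes were compared with the nearest other value. Of 62 groups, 3 held an array that stood apart by more than Dixon's 95% limit (a gap over 0.71 of the range), and chance gives about 1 in 20 groups. Mvd, the mevalonate diphosphate decarboxylase, read 7.65 in wild-type replicate 1, with a gap of 0.826 of the group's range. Sc5d read 12.24 in double knockout replicate 2, with a gap of 0.798. Abca1 read 11.08 in wild-type replicate 4, with a gap of 0.831. The first 2 of these are arrays on which most synthesis enzymes were the highest of their group.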

How the results depend on the processing

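Direction and side of the threshold were kept in 513 of 560 combinations of a member and an alternative. No member was called with median centring, with every row tested or with the replicate number as a block, although the labels give only a shared number. Leaving out each array in turn gave 0 to 1 members called. Scarb1 was the 1 member called with an intensity trend, the robust option, array weights, quantile normalization again, a filter on low levels, rows of 1 symbol only, or a threshold of 0.1; without the 4 arrays highest in pancreas markers 2 were called, Insig1 and Dhcr7. Over all genes, 224 calls became 377 with the filter, 75 with every row, 76 with the replicate block and 68 without those 4 arrays, and 64 to 253 with 1 array left out, lowest without wild-type replicate 2 (64) and double knockout replicate 4 (68), and more than 1.5 times lower also without double knockout replicates 2, 3 or 5 or wild-type replicates 3 or 4. Called genes of the pathway lists numbered 3 with the trend and with the filter, 2 with quantile normalization again, 0 with every row, with the block and without the 4 arrays, and 0 to 2 with 1 array left out. The median pooled SD of the members was 0.0957 without the 4 arrays, against 0.115. Small differences changed sign: Fdps was 0.0039 with quantile normalization again, and Scap was -0.067, Lss -0.19 and Cyp51 -0.50 without the 4 arrays. With 1 array left out, the differences ran from -0.033 to 0.040 for Srebf2, -0.030 to 0.037 for Scap, -0.17 to 0.0086 for Mvk, -0.021 to 0.040 for Mvd, -0.11 to 0.17 for Fdps, -0.15 to 0.18 for Sqle, -0.057 to 0.096 for Lss, -0.10 to 0.27 for Cyp51, -0.032 to 0.00086 for Lbr and -0.030 to 0.062 for Mylip. Without changing sign, leaving out 1 array also moved by over 1.5 times the differences of Hmgcs1, Msmo1, Nsdhl and Stard4, given above. The same held for Abca1 (-0.056 without wild-type replicate 4, -0.063 without double knockout replicate 5), Ebp (-0.015 without wild-type replicate 4) and Ggps1 (-0.011 without double knockout replicate 1). It also held for Hsd17b7 (-0.15 without wild-type replicate 5), Insig2 (0.059 without wild-type replicate 4), Npc1 (-0.042 without double knockout replicate 5) and Pmvk (-0.055 without wild-type replicate 1). The correlations with the enzyme mean ran from -0.29 to 0.31 for Npc2, -0.066 to 0.46 for Abca1 and -0.41 to 0.15 for Insig2. The cause of these changes was not tested. Over all alternatives run, the median member difference lay between -0.21 and -0.06, the median r of enzyme pairs between 0.37 and 0.60, and the number of members with a lower mean in double knockout between 19 and 26. With 5 arrays a group, the 95% intervals of Cyp51 and Sqle reach beyond 0.5 log2 units in both directions.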

Other observations

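Some genes outside the members also followed the mean of the synthesis enzymes over the 10 arrays with group means removed, described here by r with no test. The gene of the release and sensing list with the highest r was Srebf1, which encodes SREBP1 (r = 0.81, rho = 0.85). Srebf1 read 8.43, 8.50, 8.36, 8.33 and 8.22 in double knockout, against 8.68, 8.70, 8.58, 8.58 and 8.34 in wild type, and its difference of -0.21 did not pass (limma adjusted p = 0.203). In the same list Rnf145, a sterol-responsive ubiquitin ligase, had the lowest r (-0.70). In the fatty acid list Fads1, a desaturase of polyunsaturated fatty acids, had the highest r (0.85), and in the transport and export list Nr1h3, which encodes the oxysterol receptor LXR alpha, did (0.81). In the isoprenoid branches no gene exceeded r = 0.39, reached by Coq2 of coenzyme Q synthesis. Genes were picked from each list for the highest or lowest r after their values were seen.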
